A study of Homo sapiens with 4 samples.

Results

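The genes described are 10 of the 56655 gene symbols counted, chosen by name as receptors of insulin and the insulin-like growth factors (IGFs), the proteins that dock on these receptors, and the proteins that bind IGFs outside the cell. They are IGF1R, INSR, IGF2R, IRS1, IRS2, GRB10, IGFBP2, IGFBP3, IGFBP4 and IGFBP6. All 10 symbols were in the count tables, and 9 had enough counts to be tested; IGFBP3 did not.

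RNA-seq was done on OVCAR5 cells, an established human line obtained from an ovarian cancer. The cells were stably transduced with lentivirus carrying a nontargeting control short hairpin RNA (shCtrl, n = 2 libraries) or a hairpin against the forkhead transcription factor gene FOXK2 (shFOXK2, n = 2 libraries), and both groups were selected with puromycin. A single hairpin in a single line was sequenced, and no label says whether the 2 libraries of a group came from separate transductions or cultures, so p-values measure the spread between these libraries, which may be technical. The comparison asks how transcript levels differ when FOXK2 is targeted, and IGF1R is a gene that the study names as a FOXK2 target. The study listed it as a known target among genes that had a FOXK2 peak and were lower in its shFOXK2 RNA-seq. The peaks came from ChIP-seq in OVCAR5 cells, which maps where a protein binds DNA. The fall of IGF1R described here comes from that same RNA-seq, so it is not separate evidence.

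Insulin, IGF1 and IGF2 act through INSR and IGF1R, closely related receptor tyrosine kinases. The active kinases phosphorylate the docking proteins IRS1 and IRS2, which recruit PI3K and so turn on AKT and mTOR, while AKT keeps FOXO transcription factors out of the nucleus. IGF2R carries no kinase and clears IGF2 from the surface, and the IGFBPs hold IGFs in the extracellular space, where they can block or prolong their action.

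Among the 9 tested genes, 5 fell in shFOXK2 (IGF1R, INSR, IGF2R, IRS1 and GRB10), 2 rose (IGFBP2 and IGFBP4), and IRS2 and IGFBP6 did not pass the threshold. A gene was called at an adjusted p-value under 0.05 in edgeR's quasi-likelihood test, adjusted over all 16417 tested genes. Calls were frequent in these libraries. Of all tested genes, 48.4% were called, 22.7% lower and 25.7% higher, so calling alone does not set a gene apart. Fewer genes, 5.27%, were called with a log2 fold change of −2 or lower, a limit chosen after the values were seen. IGF1R (−2.14) and INSR (−2.97) were among them, and IGF2R (−2.01) was just inside the limit but outside it with the offset for A content (−1.93), the offset for GC content (−1.95), scaling by library size alone (−1.97), the filter of 10 counts in every library (−1.96), and, at −1.99 each, without shCtrl replicate 1 or shFOXK2 replicate 1. The groups did not overlap for 8 of the 9 genes, 5 with shFOXK2 lower and 3 with shFOXK2 higher, while 75.4% of all tested genes had groups that did not overlap, 36.2% lower and 39.2% higher. The median log2 fold change was −1.20 over the 9 genes and 0.04 over all tested genes.

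FOXK2 itself, the target of the hairpin, had 1796 and 1499 counts in shCtrl against 1086 and 1084 in shFOXK2. On the CPM scale, which brings counts to a common library total with TMM factors, its level was 80.5 and 93.4 in shCtrl and 76.3 and 59.6 in shFOXK2. Both shFOXK2 libraries were below both shCtrl libraries, but the log2 fold change of −0.36 (SE 0.25) did not pass the threshold (adjusted p = 0.257). Its paralog FOXK1 was lower (log2 fold change −1.16, SE 0.23, adjusted p = 0.00111). For FOXK2, the study reported reduced mRNA by qRT-PCR and reduced protein by Western blot in OVCAR5 cells carrying its FOXK2 hairpins.

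The libraries held 14284005 to 21950873 counts, and 3 counts corresponded to 0.137 to 0.21 CPM. Of 6 epithelial markers, all were detected, with a summed level of 4070 to 5440 CPM in shCtrl and 4080 to 5300 in shFOXK2, and CDH1, which encodes E-cadherin, was the one called, lower in shFOXK2. Of 6 serous ovarian carcinoma markers, WT1 and ESR1 stayed under 1 CPM in every library, 3 were lower and 1 was higher, and the sum went from 42.9 to 44.9 CPM in shCtrl to 19.5 to 21.8 in shFOXK2. The 5 leukocyte, 5 endothelial and 5 fibroblast markers summed to at most 20.4 CPM in any library, the highest being the fibroblast sum in shCtrl. Of these lists, PTPRC, CD3E, KDR, DCN and COL1A2 were at or near 0, but other markers were not. COL1A1 was at 14.5 and 13.4 CPM in shCtrl and 15.9 and 12.6 in shFOXK2, PDGFRB went from 127 and 87 counts to 2 and 8, PECAM1 from 154 and 90 to 9 and 29, and CDH5 from 76 and 33 to 0 in both. CLDN5, also an endothelial marker, moved the other way, from 0.538 and 0.374 CPM in shCtrl to 1.05 and 0.879 in shFOXK2. The leukocyte sum nevertheless moved with the groups, from 7.22 to 8.10 CPM in shCtrl to 0.633 to 1.26 in shFOXK2, through ITGAM, as did the endothelial sum, from 8.10 to 11.2 CPM to 1.69 to 2.91. Of 5 gastrointestinal markers, 3 were tested, 0 were called lower and 1 was called higher. CDX2 had 230 and 214 counts in shCtrl against 126 and 125 in shFOXK2, a fall that was not called. LGALS4 had 3 and 1 counts against 15 and 16, and CDH17 was at 0.717 and 0.748 CPM against 0.984 and 0.934. CDX1 had 0 counts in all libraries, and the sum of the list was 11.4 to 14.3 CPM in shCtrl and 9.06 to 11.1 in shFOXK2. The part of these shifts in the results below was not tested. In bulk RNA, fewer cells of a kind and less RNA per cell cannot be told apart.

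FOXK2 belongs to the forkhead factors, which bind short T- and A-rich sites. The promoters of the 10 genes were read from RefSeq (GRCh38.p14, 250 bases before to 50 after each start), and all 10 had at least 1 entry. The 250 bases before the start are shown for IGF1R and INSR, the receptors with kinase activity, and for IRS2, the one gene of the set with an insulin response element core. A short stretch of IGFBP6 is shown because it holds the one forkhead site found. Capitals mark matches on either strand to GGGCGG (GC box) in IGF1R, INSR and IRS2, to CAAAACA (the core of an insulin response element) in IRS2, and to TGTTTAC (a forkhead site) in IGFBP6. They read, 5′ to 3′ along the gene's strand:
IGF1R, chr15:98648289-98648538, plus strand: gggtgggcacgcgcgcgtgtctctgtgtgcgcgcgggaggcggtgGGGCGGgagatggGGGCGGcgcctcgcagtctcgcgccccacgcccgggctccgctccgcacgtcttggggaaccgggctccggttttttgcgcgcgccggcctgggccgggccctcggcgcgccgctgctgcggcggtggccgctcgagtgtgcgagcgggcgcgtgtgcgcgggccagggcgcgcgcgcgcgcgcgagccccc
INSR, chr19:7294415-7294664, minus strand: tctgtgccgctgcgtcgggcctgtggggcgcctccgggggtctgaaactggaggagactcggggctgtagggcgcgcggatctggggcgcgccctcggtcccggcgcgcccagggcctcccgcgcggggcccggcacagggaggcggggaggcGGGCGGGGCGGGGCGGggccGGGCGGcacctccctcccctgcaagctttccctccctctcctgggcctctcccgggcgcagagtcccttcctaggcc
IRS2, chr13:109786584-109786833, minus strand: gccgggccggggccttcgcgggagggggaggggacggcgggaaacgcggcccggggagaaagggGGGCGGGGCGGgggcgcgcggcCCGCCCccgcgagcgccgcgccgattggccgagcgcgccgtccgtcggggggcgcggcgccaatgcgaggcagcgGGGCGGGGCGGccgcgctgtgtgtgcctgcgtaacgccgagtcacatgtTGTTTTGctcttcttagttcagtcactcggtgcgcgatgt
IGFBP6, chr12:53097470-53097498, plus strand: caatttgggaaGTAAACAgaaactggaaa

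The forkhead site TGTTTAC was found in 3.42% of 35114 promoters and in 2.24% of those of tested genes. Among the 10 genes it was present in IGFBP6 alone, as GTAAACA. GENCODE gives IGFBP6 an earlier start than RefSeq, so this place lies inside the gene in that annotation. The insulin response element core CAAAACA was in 4.92% of promoters and in IRS2 alone, as TGTTTTG, which also holds the forkhead core TGTTT. The core TGTTT by itself was in 44.4% of promoters and in 31.0% of those of tested genes. Besides IRS2, the windows of IGF1R, IRS1 and IGFBP6, of 1 GRB10 start and of 2 IGFBP2 starts held it. The GC box GGGCGG was in 45.0% of all promoters and in 69.2% of those of tested genes, with 2 matches in IGF1R, 4 in INSR, 6 in IGF2R, 4 in IRS1 and 5 in IRS2. The other genes of the set held it too, with 4 and 3 matches at separate GRB10 starts and 1 match at each of 2 IGFBP2 starts. IGFBP3 and IGFBP4 had 2 matches each and IGFBP6 had 1. The TATA box TATAAA was in 11.5% of promoters, IGFBP4 and one of 5 GRB10 starts among them. These matches describe the letters in the windows alone, and sites outside them were not searched. Most FOXK2 ChIP-seq peaks of the study lay in promoters, introns and regions between genes, and IGF1R was among the genes with a peak.

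**Figure D1:**
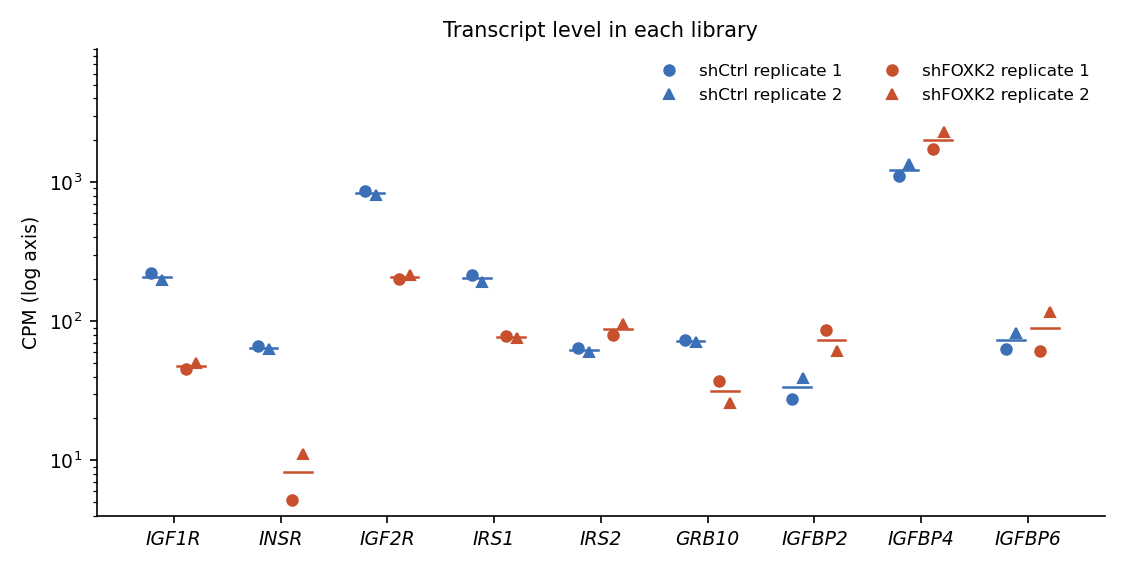
Level of each tested gene in the 4 libraries, in CPM on a log axis, with shCtrl and shFOXK2 side by side, a symbol for each replicate and a bar at the mean of each pair. The 2 shFOXK2 libraries lie below both shCtrl libraries for IGF1R, INSR, IGF2R, IRS1 and GRB10, above both for IRS2, IGFBP2 and IGFBP4, and overlap them for IGFBP6.

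IGF1R, the receptor for IGF1 and IGF2, lies on chromosome 15 (hg38, 98648539 to 98964530, plus strand). It had 4937 and 3167 counts in shCtrl against 645 and 908 in shFOXK2, or 221 and 197 CPM against 45.3 and 49.9. Both shFOXK2 libraries were far below both shCtrl libraries. The mean fell from 209 ± 17.0 to 47.6 ± 3.21 CPM (SD, n = 2 each), 22.8% of control (log2 fold change −2.14, SE 0.24, 95% confidence interval −2.65 to −1.62, adjusted p = 2.12e-05). IGF1R overlaps 5 annotated genes, 3 of them on the opposite strand, and reads of these cannot be told from its own if the counting ignored strand. The 24 tested genes within 5 Mb of IGF1R had a median of 0.11 in log2 fold change, with 3 called lower and 6 higher.

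INSR, the insulin receptor (chromosome 19, 7112255 to 7294414, minus strand), showed the largest fall among the tested genes of the set. Its counts were 1469 and 1012 in shCtrl and 74 and 203 in shFOXK2, or 65.8 and 63.0 CPM against 5.20 and 11.2. The shCtrl libraries were close to each other, whereas shFOXK2 replicate 2 lay above replicate 1, and all shFOXK2 values were below all shCtrl values. The mean went from 64.4 ± 1.98 to 8.18 ± 4.21 CPM (SD, n = 2 each), 12.8% of control (log2 fold change −2.97, SE 0.34, 95% confidence interval −3.71 to −2.23, adjusted p = 2.69e-05). Without single libraries in turn, the log2 fold change ran from −3.66 to −2.56. Its 207 tested neighbours within 5 Mb had a median of −0.10.

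IGF2R, the receptor that takes IGF2 to lysosomes (chromosome 6, 159969082 to 160113507, plus strand), was the most abundant of the 3 receptors. Counts were 19236 and 12895 in shCtrl and 2851 and 3877 in shFOXK2, or 862 and 803 CPM against 200.4 and 213, so that the groups were well apart. The mean went from 833 ± 41.7 to 207 ± 8.88 CPM, 24.8% of control (log2 fold change −2.01, SE 0.24, adjusted p = 2.81e-05). IGF2R overlaps AIRN on the opposite strand.

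On a scale of CPM per kilobase of the canonical transcript, which allows levels to be set side by side between genes, the mean level of IGF2R was 59.2 in shCtrl and 14.7 in shFOXK2, that of IGF1R 17.1 and 3.89, and that of INSR 6.81 and 0.864. The order of the 3 levels was the same in both groups. As a share of their sum, IGF1R took 20.9% and 20.2% in shCtrl and 20% in each shFOXK2 library. INSR took 8.06% and 8.34% in shCtrl and a smaller share of 2.97% and 5.78% in the shFOXK2 libraries. The ratio of IGF1R to INSR counts was 3.36 and 3.13 in shCtrl and 8.72 and 4.47 in shFOXK2.

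Of the docking proteins, IRS1 fell and IRS2 did not pass the threshold. IRS1 (chromosome 2, 226731312 to 226799820, minus strand) was counted 4794 and 3060 times in shCtrl against 1121 and 1374 in shFOXK2, or 215 and 191 CPM against 78.8 and 75.5, with no overlap between groups. Its mean fell from 203 ± 17.2 to 77.1 ± 2.35 CPM, 38.0% of control (log2 fold change −1.39, SE 0.23, adjusted p = 0.000338). IRS2 (chromosome 13, 109752695 to 109786583, minus strand) was counted 1437 and 957 times in shCtrl against 1140 and 1745 in shFOXK2, or 64.4 and 59.6 CPM against 80.1 and 95.9. Both shFOXK2 libraries were higher, but the log2 fold change of 0.51 (SE 0.24, 95% confidence interval −0.02 to 1.03) did not pass the threshold (adjusted p = 0.102).

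A library-wise ratio needs no scaling. IRS1 counts were 3.34 and 3.20 times those of IRS2 in shCtrl, and 0.983 and 0.787 times in shFOXK2, so IRS1 exceeded IRS2 in both shCtrl libraries and in neither shFOXK2 library. This pair and the 6 other pairs drawn were chosen after the counts were seen, and 2 libraries against 2 allow no exact permutation p-value below 0.333. GRB10, an adaptor that binds the active receptors and dampens their signalling (chromosome 7, 50590063 to 50793462, minus strand), was counted 1643 and 1133 times in shCtrl against 526 and 469 in shFOXK2, or 73.6 and 70.6 CPM against 37.0 and 25.8. It was thus lower in both, at 43.5% of control (log2 fold change −1.20, SE 0.27, adjusted p = 0.00234). The ratio of IGF1R to GRB10 counts was 3.0 and 2.80 in shCtrl and 1.23 and 1.94 in shFOXK2.

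**Figure D2:**
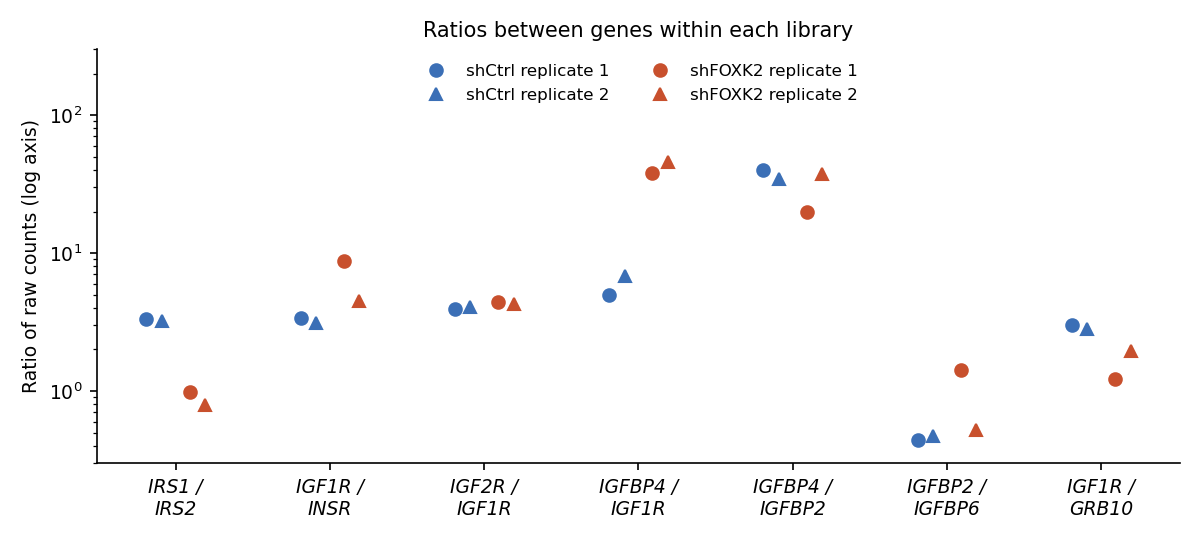
Ratios of raw counts between 2 genes within each of the 4 libraries, on a log axis, for 7 pairs chosen after the counts were seen, with shCtrl and shFOXK2 side by side and a symbol for each replicate. IRS1 over IRS2 falls from 3.34 and 3.20 to 0.983 and 0.787, IGFBP4 over IGF1R rises from 4.95 and 6.85 to 37.9 and 45.9, and IGFBP4 over IGFBP2 overlaps between groups.

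Of the 4 IGF-binding proteins of the set, IGFBP2 and IGFBP4 rose, IGFBP6 did not pass and IGFBP3 was not detectable. IGFBP2 (chromosome 2, 216632828 to 216664436, plus strand) had 616 and 630 counts in shCtrl against 1231 and 1110 in shFOXK2, or 27.6 and 39.2 CPM against 86.5 and 61.0. It was higher in both shFOXK2 libraries, 2.21-fold on average (33.4 ± 8.23 to 73.8 ± 18.1 CPM, log2 fold change 1.14, SE 0.28, adjusted p = 0.00463). IGFBP4 (chromosome 17, 40443450 to 40457725, plus strand) was the most abundant gene of the set and ranked 39 of all genes by mean CPM. It had 24448 and 21703 counts in shCtrl against 24473 and 41719 in shFOXK2. Scaled to CPM its level was 1096 and 1352 in shCtrl and 1720 and 2292 in shFOXK2, a rise of 1.64-fold (log2 fold change 0.71, SE 0.26, adjusted p = 0.0356). That call was lost without shCtrl replicate 1 (log2 fold change 0.53, adjusted p = 0.110) and without shFOXK2 replicate 2 (0.46, adjusted p = 0.291).

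IGFBP6, which binds IGF2 by preference (chromosome 12, 53097436 to 53102345, plus strand), had 1404 and 1330 counts in shCtrl against 875 and 2115 in shFOXK2, or 62.9 and 82.8 CPM against 61.5 and 116. The groups overlapped, the log2 fold change was 0.29 (SE 0.30, adjusted p = 0.457), and it turned to −0.28 (adjusted p = 0.577) when shFOXK2 replicate 2 was left out. IGFBP3 had 0 counts in both shCtrl libraries and 1 and 2 in shFOXK2, which is under the floor of 3 counts in each library, so no fold is given and it was not detectable at this depth. Per kilobase, IGFBP4 took 83.4% to 86.2% of the summed level of IGFBP1 to IGFBP7 in all 4 libraries. IGFBP2 took 3.31% and 3.77% in shCtrl and 6.74% and 3.57% in shFOXK2, which overlap. The ratio of IGFBP4 to IGF1R counts was 4.95 and 6.85 in shCtrl and 37.9 and 45.9 in shFOXK2.

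**Figure D3:**
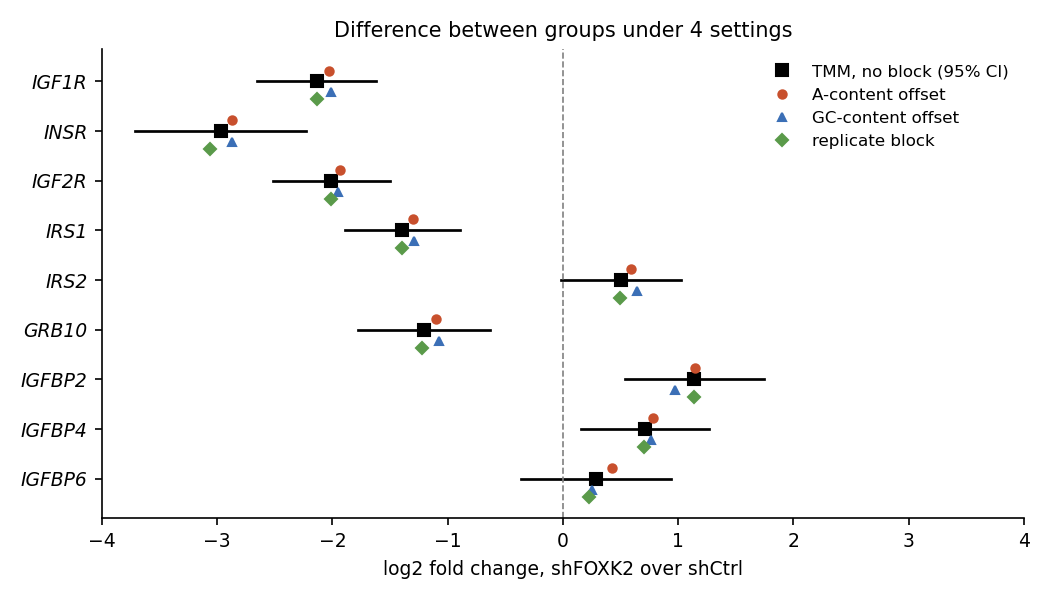
Log2 fold change of shFOXK2 over shCtrl for the 9 tested genes, with squares and 95% confidence intervals from the test as used and the values with an offset for transcript A content (circles), for GC content (triangles) and with a replicate block (diamonds). IGF1R, INSR, IGF2R, IRS1 and GRB10 lie below 0 and IGFBP2 and IGFBP4 above 0 under all 4 settings, while the intervals of IRS2 and IGFBP6 include 0.

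Fold changes across all genes moved with the A content of the transcript, the share of A bases in the canonical GENCODE transcript. The median was −0.30 for the 3868 genes under 22% A, and 2.30 for the 238 genes with at least 35% A. The 9 tested genes had 16.9% to 25.4% A, where genes within 1 percentage point of the same A content had medians of −0.37 to −0.22. With a smooth offset for A content the median of all tested genes went from 0.04 to −0.16, and the calls of all genes turned from 53.1% higher to 41.9% higher. The offset left the falls in place, at −2.03 for IGF1R (adjusted p = 2.31e-06) and −2.87 for INSR. IRS2 passed the threshold with it (log2 fold change 0.59, adjusted p = 0.0303), and with an offset for GC content (0.65, adjusted p = 0.0177), which makes 3 genes of the set higher. Of all tested genes, 22.2% were called higher with the A-content offset, and 3954 of 16417 with the GC-content offset. What causes the relation with A content was not tested.

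**Figure D4:**
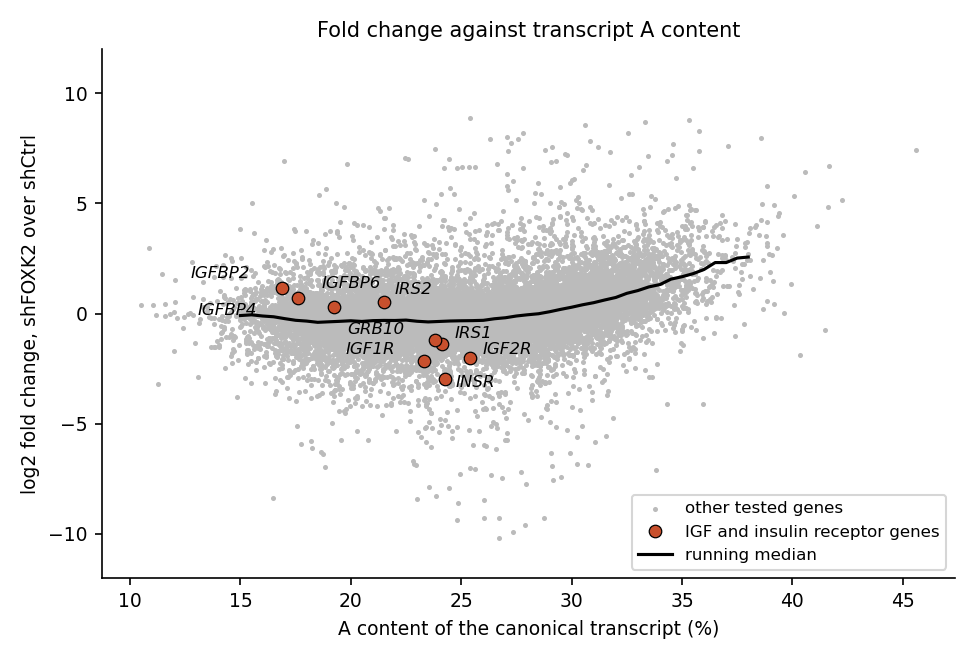
Log2 fold change of shFOXK2 over shCtrl for each tested gene with a matched transcript (grey points) against the A content of that transcript in percent, with the running median (line) and the 9 tested genes of the set (red, labelled). The set lies between 16.9% and 25.4% A, on the flat part of the line, with INSR, IGF1R, IGF2R, IRS1 and GRB10 below it and IGFBP2, IGFBP4, IGFBP6 and IRS2 above it.

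The genes most like IGF1R across the 4 libraries were found by the Euclidean distance between log2 CPM values centred on each gene's mean, over the 9923 genes whose log2 CPM averaged at least 3. Nearest were FYCO1 at a distance of 0.038, NT5C2 at 0.063, UBE2H at 0.073 and LRIG1 at 0.098. LRIG1 is known as a negative regulator of receptor tyrosine kinases. IGF2R came at rank 7 (0.136), closer to IGF1R than IRS1 (rank 608), GRB10 (rank 1073) and INSR (rank 1358). With 4 libraries these distances are a description.

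The rest of the pathway was described from a list of 93 other genes, of which 83 were tested. Of these, 31 were lower (37.3%, against 22.7% of all tested genes) and 8 were higher (9.64%, against 25.7%), and 44 did not pass. Their median log2 fold change was −0.43. With the A-content offset, 41 were lower and 6 higher, against 30.9% and 22.2% of all tested genes. These counts are not a test of the list.

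Of the ligands, IGF1 and INS had 0 counts in all 4 libraries, and INSRR, the orphan receptor of the family, had at most 1. IGF2 had 433 and 284 counts in shCtrl against 71 and 113 in shFOXK2, and so was lower in both (18.5 to 5.60 CPM on average, log2 fold change −1.72, SE 0.30, adjusted p = 0.000503). IGF2 overlaps INS-IGF2 and IGF2-AS, with which it may share reads. Among the other binding proteins, IGFBP1 had 0 counts in every library and IGFALS at most 7, and IGFBP7 had 0 counts in shCtrl and 7 and 8 in shFOXK2, too few to be tested. IGFBP5 had 1059 and 707 counts in shCtrl against 70 and 96 in shFOXK2. It fell, unlike IGFBP2 and IGFBP4 (log2 fold change −3.16, SE 0.29, adjusted p = 4.15e-06).

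Of 6 tested proteases of binding proteins and their inhibitors, 1 fell and 1 rose (16.7% each way, against 22.7% lower and 25.7% higher among all tested genes). With the A-content offset 2 of the 6 were lower and 1 higher, against 30.9% and 22.2% of all tested genes. STC2, a secreted inhibitor of the PAPPA protease, had 5685 and 4429 counts in shCtrl against 1289 and 1339 in shFOXK2 (log2 fold change −1.69, adjusted p = 0.000102). PAPPA, which cleaves IGFBP4 and frees IGFs, had 10 and 8 counts in shCtrl against 15 and 29 in shFOXK2 (log2 fold change 1.49, SE 0.48, adjusted p = 0.0207), and this call was lost with DESeq2 (adjusted p = 0.154) and without shCtrl replicate 1 (adjusted p = 0.163), shCtrl replicate 2 (0.123) or shFOXK2 replicate 2 (0.180). IGF2BP3, which binds IGF2 mRNA, was lower (log2 fold change −1.41, adjusted p = 0.00173), with 2285 and 923 counts in shCtrl against 402 and 584 in shFOXK2, and stood at −2.08 with the A-content offset. IGF2BP1 and IGF2BP2 did not pass.

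Among 9 tested adaptors, SHC1, which links the receptors to RAS, was the one called (log2 fold change −1.26, adjusted p = 0.000665), which makes 11.1% lower against 22.7% of all tested genes. With the A-content offset, 4 of the 9 adaptors were lower (SHC1, SOS1, SOS2 and GAB1) and 1 was higher (SH2B1), against 30.9% and 22.2% of all tested genes. IRS4 had 0 counts in all libraries. Of 9 genes that restrain receptor signalling, 5 fell and 2 rose (55.6% and 22.2%, against 22.7% and 25.7% of all tested genes). The cytokine-induced inhibitors SOCS1 (log2 fold change −2.47, adjusted p = 0.000189) and SOCS3 (−2.10, adjusted p = 4.38e-05) fell, as did the phosphatase gene PTPN1, which dephosphorylates INSR (−1.25, adjusted p = 0.000656). GRB14, a paralog of GRB10 with the same kind of action, moved the other way, from 47 and 20 counts in shCtrl to 145 and 252 in shFOXK2 (log2 fold change 2.82, SE 0.38, adjusted p = 7.36e-05), and by 1.91 (adjusted p = 0.000145) with the A-content offset. PTPN2 was called higher (1.17, adjusted p = 0.00213) but not with the A-content offset (0.11, adjusted p = 0.696).

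Downstream, PIK3IP1, an inhibitor of PI3K, had 215 and 163 counts in shCtrl against 4 and 10 in shFOXK2 (log2 fold change −4.51, SE 0.44, adjusted p = 7.37e-06), the lowest value on the list. INPPL1, a lipid phosphatase gene, was also lower (−0.92, adjusted p = 0.00497). Of the PI3K genes, PIK3CB (−0.81, adjusted p = 0.0269) and PIK3R3 (−0.84, adjusted p = 0.0396) were lower. PIK3R3 did not pass with the replicate block (adjusted p = 0.0737). Of the 8 tested genes in the role of PI3K and lipid phosphatases, 4 fell and 1 rose (50% and 12.5%, against 22.7% and 25.7% of all tested genes). With the A-content offset 6 of the 8 were lower and 0 higher, against 30.9% and 22.2% of all tested genes. The PI3K genes PIK3CA (0.15, adjusted p = 0.769) and PIK3R1 (0.58, adjusted p = 0.231) did not pass, but passed in some alternatives. Without shCtrl replicate 1 both were higher (0.96, adjusted p = 0.0212, and 1.38, adjusted p = 0.00527), whereas with the offsets PIK3CA was lower (A content −0.91, adjusted p = 0.00694, and GC content −0.94, adjusted p = 0.0042). AKT1 (−0.26, adjusted p = 0.402) and AKT2 (−0.43, adjusted p = 0.138) did not pass. With the A-content offset 2 of the 10 AKT module genes were lower and 0 higher, against 30.9% and 22.2% of all tested genes. Without that offset, the AKT module had a median log2 fold change of −0.40, with 10% called lower and 0% higher, against 22.7% and 25.7% of all tested genes. Of the 10 AKT module genes, only PHLPP2, a phosphatase of AKT, was called, lower (−0.91, adjusted p = 0.0140), and not without shFOXK2 replicate 2 (−0.76, adjusted p = 0.111).

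In the TSC and mTOR module 3 of 15 genes fell and 3 rose (20% each way, against 22.7% and 25.7% of all tested genes). With the A-content offset 5 of the 15 were lower and 2 higher, against 30.9% and 22.2% of all tested genes. MTOR (log2 fold change −0.75, adjusted p = 0.0191) and its activator RHEB (−0.79, adjusted p = 0.0135) were lower, and TSC2 did not pass (−0.21, adjusted p = 0.493). Without shFOXK2 replicate 2 neither passed (MTOR −0.64, adjusted p = 0.138, and RHEB −0.84, adjusted p = 0.0525), and without shFOXK2 replicate 1 RHEB did not (−0.79, adjusted p = 0.0573). The translation repressors held by mTOR split, with EIF4EBP1 higher (1.09, adjusted p = 0.00305) and EIF4EBP2 lower (−0.97, adjusted p = 0.00345). RICTOR, part of mTOR complex 2, was higher (1.71, adjusted p = 0.00165), and by 0.64 (adjusted p = 0.0411) with the A-content offset. RPS6, a ribosomal protein gene, was called higher (0.93, adjusted p = 0.00484) but not with that offset (−0.06, adjusted p = 0.851).

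Of 17 genes known as FOXO targets, 11 fell and 1 rose (64.7% and 5.88%, against 22.7% and 25.7% of all tested genes), with a median log2 fold change of −1.20. With the A-content offset 12 were lower and 1 higher, against 30.9% and 22.2% of all tested genes. SOD2, mitochondrial superoxide dismutase, went from 25142 and 14384 counts to 562 and 930 (log2 fold change −4.48, SE 0.28, adjusted p = 3.65e-07), and BBC3, which encodes the cell death protein PUMA, from 239 and 223 to 19 and 25 (−3.17, adjusted p = 2.47e-05). GADD45A, a growth arrest gene, rose (0.80, adjusted p = 0.0174), and did not pass without shFOXK2 replicate 1 (0.83, adjusted p = 0.0504) or replicate 2 (0.71, adjusted p = 0.120), or with no filter on low counts (0.70, adjusted p = 0.0611). Of the FOXO genes, FOXO1 (0.11, adjusted p = 0.775) and FOXO3 (−0.03, adjusted p = 0.931) did not pass, while FOXO4 had 247 and 214 counts in shCtrl against 16 and 32 in shFOXK2 (−3.06, adjusted p = 3.74e-05) and FOXO6 was lower as well (−2.26, adjusted p = 7.52e-05). IRS2 and INSR are themselves known FOXO targets and were left out of this count.

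**Figure D5:**
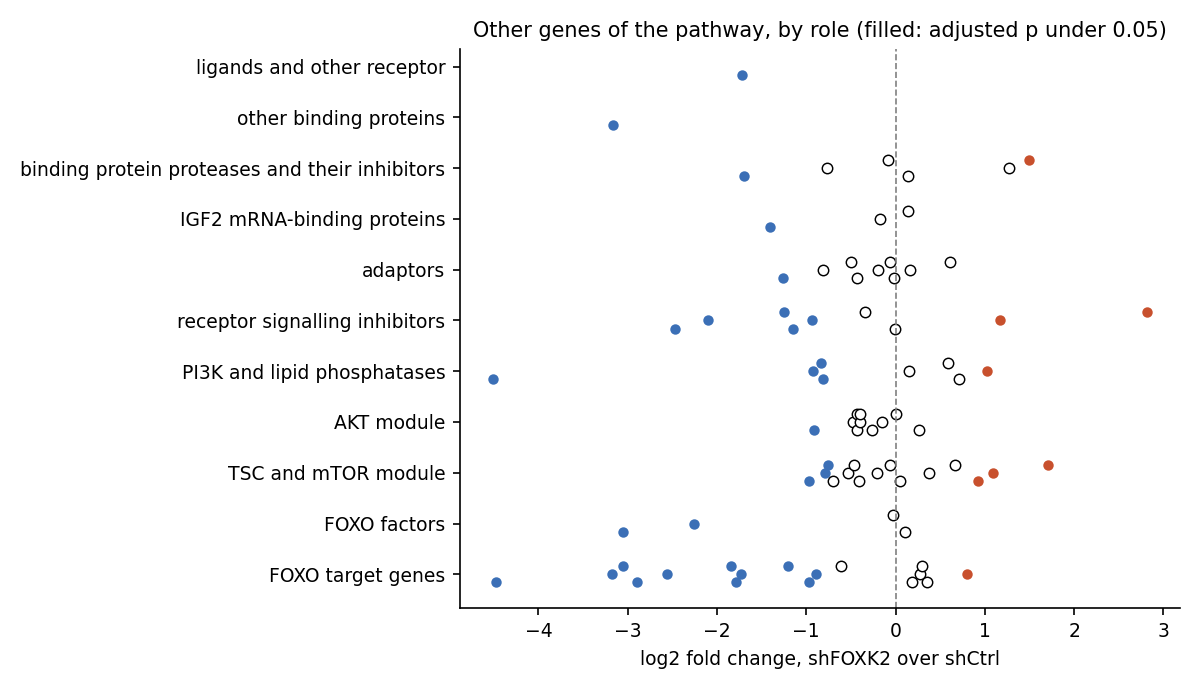
Log2 fold change of shFOXK2 over shCtrl for each of the 83 tested pathway genes other than the 10 described first, one row for each role, with filled points for genes with an adjusted p under 0.05. The FOXO target row lies mostly below 0, with 11 of 17 genes lower, and the AKT row has a median of −0.40, with 1 of 10 called.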

How the data were processed

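The authors extracted RNA from OVCAR5 cells, enriched polyadenylated RNA, made libraries with a NEBNext Ultra II kit, sequenced single-end reads, aligned them to hg38 with STAR 2.5.2 and counted them with HTSeq. They deposited raw counts per gene symbol, 1 table for each library. The strand setting and annotation of the counting are not given in the sources used here. Groups and replicate numbers came from the sample titles.

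Counts of all genes were filtered with filterByExpr, scaled with TMM and compared between groups in edgeR 4.0.16 (R 4.3.3) by its 2-sided quasi-likelihood F test. P-values were adjusted over 16417 genes (Benjamini-Hochberg, threshold 0.05). The SE was taken as the size of the log2 fold change over the square root of F. CPM are TMM-scaled, as mean ± SD of 2 libraries. Intervals of fold changes are at the 95% level, and floors of 3 counts cover counting error only. Replicates differed beyond sampling noise in both groups.

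The members, gene lists and tests were chosen with earlier results of these data known. Besides the 10 genes, names came from a written list of pathway genes and, in each role, from up to 2 largest rises and 2 largest falls among called genes whose groups did not overlap. Cell type markers were written lists. GENCODE v44 gave positions, lengths and base composition and matched 36519 of 56655 symbols and 87.8% of tested genes. RefSeq promoters were searched on both strands for 5 motifs.

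Alternatives were DESeq2 1.42.0, the edgeR exact test, other scaling, other filters, lowess offsets (span 0.2) for A or GC content, a replicate block, glmTreat (minimum log2 fold change 1) and leaving out each library. A crossed block was chosen after seeing the data. The tests were tried on simulated counts before use. Genes outside the rule, such as RPS6, INPP4B, PIK3CB, PIK3R3 and the adaptors other than SHC1 and IRS4, were named after their values were seen. Some genes that the naming rule selects are not reported here.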

Additional observations from a re-analysis of the deposited data

How the results depend on the processing

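IGF1R kept its direction and its call in all 12 alternatives with all libraries (log2 fold change −2.24 to −2.01, adjusted p 5.39e-15 to 0.000587) and with any 1 library left out (−2.29 to −2.09). With glmTreat, which tests against a log2 fold change of 1, the members called fell to 3 lower and 0 higher. The other pathway genes called fell to 16 lower and 2 higher. Of all 16417 tested genes, 1330 were called lower and 2056 higher with glmTreat. With 1 library left out, the members called higher ran from 1 to 2, and the pathway genes called higher from 6 to 13, the 13 without shCtrl replicate 1. The members lower were 5 in the other alternatives with all libraries. Of all tested genes, those called lower there ran from 2939 of 13625 (at least 10 counts in every library) to 5070 of 16417 (A-content offset). With no filter they were 4310 of 35068.

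The replicate numbers are shared by the groups in the titles, with no label on what they mark. For lack of such a label, the numbers were not taken as pairs. Deviations of same-numbered libraries correlated at −0.113 over 16417 genes. With the replicate block 7270 genes were called, IGF1R was at −2.13 (adjusted p = 2.82e-09), and 5 members were lower and 2 higher. With a crossed block, added after seeing the data, 8350 were called.

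Among the 10 genes and the others that the naming rule gives and the text reports, directions that turned were those of IGFBP6 (−0.28 to 0.65 with 1 library left out), PIK3CA (−0.91 with the A-content offset, −0.94 with the GC-content offset, −0.91 with GC and block, −0.45 to 0.96 with 1 library left out), PIK3R1 (−0.055 with the A-content offset), FOXO1 (−0.26 to 0.35) and FOXO3 (0.013 with at least 10 counts in every library, 0.050 with the A-content offset, 0.011 with the GC-content offset, 0.0058 with GC and block, −0.29 to 0.14 with 1 library left out). None of these genes passed the threshold in the fit reported, and the cause was not tested. Outside the naming rule, RPS6, which had passed, turned to −0.06 with the A-content offset, and INPP4B from 0.71 (adjusted p = 0.0839) to −0.70 (adjusted p = 0.0164).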
